A study of Mus musculus with 10 samples.

Results

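The 9 genes described here are X-linked mouse genes for enzymes of energy and nucleotide metabolism, namely Pgk1, G6pdx, Pdha1, Pdk3, Idh3g, Prps1, Prps2, Hprt and Gla. They were taken by symbol, and each was found in the table of every sample, so they make up 9 of 24386 genes, beside 1018 other X-linked genes (Xist left out). The question was how the loss of transcription from one X chromosome, and the total output of the gene, differed between the enzymes over the first day of Xist expression.

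TT-seq (transient transcriptome sequencing, which reads RNA made within minutes) was run on TX1072 cells, a female mouse embryonic stem cell line with one castaneus (Cast) and one C57BL/6 (B6) X chromosome. The genotype label of all 10 samples is WT, and in all of them the endogenous Xist of the B6 chromosome stands behind a doxycycline (DOX) inducible promoter. The groups are 0, 4, 8, 12 and 24 h of DOX at 1 µg/ml in medium with serum, LIF and 2 kinase inhibitors (2i), with 2 replicates per time, and RNA was labelled for 5 min with 0.5 mM 4-thiouridine (4sU). The cells are one line, and no line without the inducible Xist was used here, so the drug, Xist and hours in culture cannot be told apart. The study calls its replicates biological duplicates, but nothing in the labels says that they came from separate cultures, so the p-values measure only the spread between these samples, which may be technical.

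X chromosome inactivation equalises X-linked dosage between the sexes. Xist RNA coats the chromosome it is made from, active histone marks are removed, and most genes of that chromosome are silenced, while the other X stays active. Since the B6 and Cast chromosomes differ in sequence, reads that cover a difference tell which chromosome was transcribed. The enzymes studied here are used in nearly all cells. Pgk1 (phosphoglycerate kinase) makes ATP in glycolysis, G6pdx (glucose-6-phosphate dehydrogenase) opens the pentose phosphate pathway, Pdha1 is the catalytic alpha subunit of pyruvate dehydrogenase and Pdk3 a kinase that switches that complex off, and Idh3g is a regulatory subunit of the NAD-dependent isocitrate dehydrogenase of the citric acid cycle. Prps1 and Prps2 make phosphoribosyl pyrophosphate, the sugar donor for nucleotide synthesis, Hprt uses it to salvage purine bases, and Gla is the lysosomal alpha-galactosidase A.

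Total counts per sample ran from 18809046 to 22274929, of which 49.2% to 52.8% were assigned to an allele. The lowest of these shares belonged to 0 h replicate 1. Xist had 32 and 31 read pairs at 0 h, and with DOX it stood at 329 to 664 CPM (read pairs normalised to the total of the sample), with 2 to 12 Cast read pairs in a sample. The summed level of 8 embryonic stem cell markers was 2694 to 2961 CPM in all samples, although Sox2 among them was listed at 0. The summed level of 12 markers of other cell types was 14.1 to 22.5 CPM, from 16.4 to 22.5 CPM at 0 h and from 15.0 to 16.7 CPM at 24 h, with Sox1 at 0.

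Before DOX, the nascent level per kb of gene span (total CPM divided by the length of the gene, introns included) spanned more than an order of magnitude between the extremes. Pgk1 was the highest at 21.5 ± 0.65 CPM per kb (SD, n = 2). Idh3g at 8.39 ± 0.79 and Pdha1 at 8.20 ± 0.0039 overlapped in range. They were followed by Prps1 at 5.84 ± 0.23, Hprt at 3.60 ± 0.062, Prps2 at 2.33 ± 0.024, G6pdx at 1.98 ± 0.17, Pdk3 at 1.78 ± 0.032 and Gla at 1.18 ± 0.17 CPM per kb, with no overlap between neighbours in this order. At 24 h the order was the same, from 15.3 ± 1.2 CPM per kb for Pgk1 to 0.918 ± 0.057 for Gla.

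The allelic measurement is the d-score, the count of B6 read pairs over the sum of B6 and Cast read pairs. It could be taken for 8 of the 9 enzymes. None of the 2422 read pairs of Gla in the 10 samples was assigned to an allele (a count of 0 allows a share of up to 0.124%), so Gla is described by its total alone. For the other members a sample held 186 to 3413 allelic read pairs. That limit covers counting error alone, since without molecular identifiers a read pair need not be its own molecule.

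The upstream sequences of Pgk1, one of the pair that lost B6 reads earliest, and of Idh3g, which lost fewest, are given here as RefSeq has them for GRCm38.p6 (mm10). The Pgk1 sequence is chrX:106186850-106187099 on the plus strand, the 250 bases before its start. The Idh3g sequence is chrX:73786898-73787027 on the minus strand, the 130 bases between the start of Idh3g and that of Ssr4, the gene that begins next to it on the opposite strand. Capitals mark a GC box (GGGCGG on either strand).
Pgk1: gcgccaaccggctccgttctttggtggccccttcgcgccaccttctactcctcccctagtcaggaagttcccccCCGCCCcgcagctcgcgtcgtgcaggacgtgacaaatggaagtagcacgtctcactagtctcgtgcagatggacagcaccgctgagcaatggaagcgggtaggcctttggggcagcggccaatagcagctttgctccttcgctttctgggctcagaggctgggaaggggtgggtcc
Idh3g: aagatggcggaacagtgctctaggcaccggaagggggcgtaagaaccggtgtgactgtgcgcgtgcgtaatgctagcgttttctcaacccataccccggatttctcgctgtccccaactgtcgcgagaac
The printed Pgk1 stretch holds 1 GC box and 17 CpG dinucleotides with 62.8% G and C, and that of Idh3g holds 0 GC boxes and 12 CpG with 57.7% G and C. The stretches are 250 and 130 bases long, so these counts are not on one scale. In windows from 250 bases before to 50 bases after the start, the 9 members had 49.3% to 68.0% G and C and 7 to 35 CpG, against medians of 52.7% and 7 over 32851 windows and of 51.0% and 7 over 1223 windows on the X. In these windows of equal length, Pgk1 had 24 CpG and Idh3g had 27. A GC box was found in 6 of the 9 windows (35.7% of all windows), CCAAT in 4 (37.4%), CACGTG in 1 (7.15%), and TATAAA and the NRF1 motif in 0 (13.6% and 4.6%), all searched on both strands. The 6 windows with a GC box were those of Pgk1, G6pdx, Hprt, Pdk3, Prps1 and Gla, with 5, 1, 3, 2, 4 and 2 matches. The Pgk1 window takes in 50 bases past the printed stretch. That of G6pdx, chrX:74428831-74429130, lies inside the span over which the gene was counted (chrX:74409486-74429161) and not upstream of it. These matches describe letters in the windows only.

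The B6 share fell in 7 of the 8 enzymes by 24 h. Pgk1 and Pdk3 were called lower from 4 h, G6pdx, Pdha1, Prps1, Prps2 and Hprt from 8 h, and Idh3g at 12 h alone. These are times of a call, and an uncalled change is not an absence of loss. In the edgeR test described next, Prps1 and Hprt also had an unadjusted p under 0.05 at 4 h. With edgeR's quasi-likelihood test on the B6 and Cast counts (Benjamini-Hochberg adjusted p under 0.05 over all 11906 genes tested), 2 of 8 members were lower at 4 h, and 7, 8 and 7 were lower after 8, 12 and 24 h. Among 362 X-linked genes tested, 11.3%, 52.8%, 65.5% and 75.1% were lower at these times, and among all genes 0.361%, 1.66%, 2.15% and 2.64% were changed in either direction. The members' counts lie above these X-linked shares, over 8 genes, and their medians lie near those of the chromosome. Depth was not matched in this comparison of counts, nor in those below of the steps between times, the B6 counts and the total counts. The X-linked genes include the members. Each of the 8 members had at least 186 allelic read pairs in every sample, whereas X-linked genes with far fewer were also tested. Whether the members' counts would exceed those of X-linked genes of like depth was not tested. The B6 to Cast ratio had a median log2 change of -0.13, -0.73, -1.12 and -1.34 in the members and -0.20, -0.69, -1.01 and -1.27 in X-linked genes, with 0.0033, -0.0008, 0.0023 and 0.0053 over all genes.

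**Figure D1:**
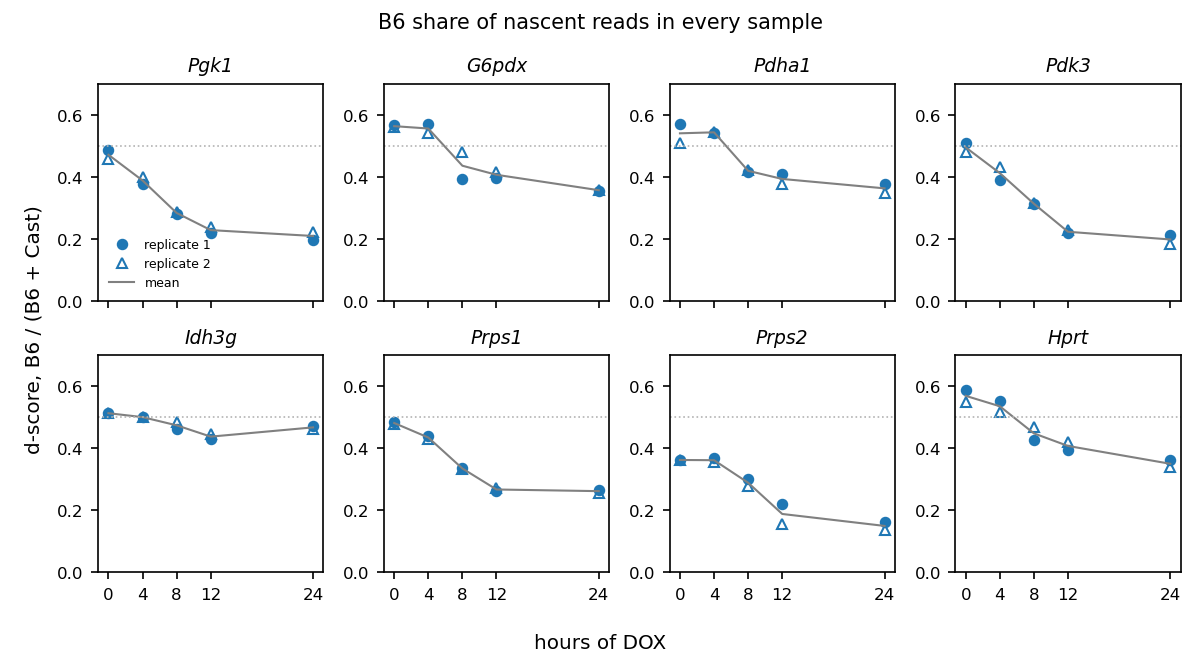
The d-score (vertical axis, B6 over B6 plus Cast read pairs) of each of 8 enzymes against hours of DOX (horizontal axis), with a circle for replicate 1, a triangle for replicate 2, a line through the mean and a dotted line at 0.5. Pgk1 and Pdk3 fall from 0.470 and 0.494 to 0.209 and 0.197, Prps2 starts at 0.362, and Idh3g stays between 0.430 and 0.514.

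Pgk1, the glycolytic member (chrX:106187100-106203699, plus strand, mm10), lies 2.70 Mb from Xist, the closest of the 9. All 9 are protein-coding genes in GENCODE, and values are over the whole span. Its d-score was 0.485 and 0.456 at 0 h, 0.377 and 0.398 after 4 h, 0.281 and 0.285 after 8 h, 0.219 and 0.237 after 12 h, and 0.195 and 0.222 after 24 h (replicates 1 and 2). Both samples of every later time lay below both samples at 0 h. The B6 to Cast ratio fell by 0.49 ± 0.065 (SE) on the log2 scale at 4 h, and at 24 h it had a log2 change of -1.75 ± 0.071 (edgeR, adjusted p = 1.37e-08 and 3.51e-46), to 29.8% of its starting value. It went on falling between 4 and 8 h (log2 -0.68 ± 0.072, adjusted p = 2.5e-13) and between 8 and 12 h (-0.41 ± 0.080, adjusted p = 0.00043). The step from 8 to 12 h had an adjusted p of 0.115 without 12 h replicate 1.

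G6pdx, at the entry of the pentose phosphate pathway (chrX:74409486-74429161, minus strand) and 29.0 Mb from Xist, had the fewest allelic read pairs, 186 to 332 in a sample. Its d-score was 0.565 and 0.560 at 0 h, 0.569 and 0.541 after 4 h, 0.392 and 0.478 after 8 h, 0.397 and 0.415 after 12 h, and 0.355 and 0.357 after 24 h. The samples at 4 h overlapped those at 0 h, and the replicates were farthest apart at 8 h. The log2 change of the ratio was -0.04 ± 0.19 at 4 h (adjusted p = 0.994), -0.76 ± 0.19 at 8 h (adjusted p = 0.00771) and -1.21 ± 0.20 at 24 h (adjusted p = 6.79e-07, edgeR). The call at 8 h was lost without 8 h replicate 1 (-0.49, adjusted p = 0.789), without 0 h replicate 1 or 2 (adjusted p = 0.0906 and 0.063) and with DESeq2 (adjusted p = 0.51), and that at 12 h (-0.91 ± 0.20, adjusted p = 0.000747) with DESeq2 (adjusted p = 0.0995), while the call at 24 h held in all 14 alternatives. The span of G6pdx lies inside that of Ikbkg on the opposite strand, whose d-score went from 0.480 to 0.303. Reads were counted by strand.

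Pdha1 (chrX:160122219-160138430, minus strand) and Pdk3 (chrX:93764616-93832095, minus strand) belong to the same enzymatic step and differed in the course and the extent of their B6 loss. The d-score of Pdha1, 56.6 Mb from Xist, was 0.571 and 0.508 at 0 h, 0.540 and 0.545 after 4 h, 0.415 and 0.423 after 8 h, 0.409 and 0.376 after 12 h, and 0.376 and 0.349 after 24 h. That of Pdk3, 9.63 Mb from Xist, was 0.508 and 0.481, then 0.390 and 0.432, 0.311 and 0.314, 0.217 and 0.228, and at 24 h 0.211 and 0.184. At 4 h Pdk3 was below both of its 0 h samples whereas Pdha1 overlapped them, and from 8 h on both genes were below.

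The ratio of Pdk3 had a log2 change of -0.48 ± 0.098 at 4 h (edgeR, adjusted p = 0.00153) and -2.0 ± 0.11 at 24 h (adjusted p = 1.03e-32), 25.05% of the start and the largest fall among the members. That of Pdha1 was 0.03 ± 0.11 at 4 h (adjusted p = 0.994), and it fell by 0.69 ± 0.11 at 8 h and by 1.03 ± 0.11 at 24 h (adjusted p = 1.42e-06 and 3.59e-13). Between 4 and 8 h the ratio fell by 0.72 ± 0.12 in Pdha1 and 0.62 ± 0.11 in Pdk3, and between 8 and 12 h by 0.16 ± 0.12 and 0.67 ± 0.12. The difference between the genes at 24 h, Pdha1 minus Pdk3, was 0.96 ± 0.16 (95% interval 0.64 to 1.28). The 4 h call of Pdk3 was lost with DESeq2 (adjusted p = 0.335) and without 0 h replicate 1 (-0.40, adjusted p = 0.255) or 4 h replicate 1 (-0.36, adjusted p = 0.47). The span of Pdha1 shares 1133 bases with that of Map3k15 on the opposite strand, whose ratio fell by 1.56 ± 0.13 at 24 h.

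Prps1 (chrX:140456603-140476140, plus strand) and Prps2 (chrX:167346320-167382749, minus strand) encode enzymes that catalyse the same reaction, and both had lost much of their B6 reads by 12 h. The d-score of Prps1, 37.0 Mb from Xist, was 0.484 and 0.479 at 0 h, 0.439 and 0.431 after 4 h, 0.336 and 0.334 after 8 h, 0.262 and 0.273 after 12 h, and 0.267 and 0.257 after 24 h. That of Prps2, 63.9 Mb from Xist and the most distant member, was 0.362 in both samples at 0 h, 0.368 and 0.355 after 4 h, 0.30 and 0.278 after 8 h, 0.22 and 0.156 after 12 h, and 0.161 and 0.138 after 24 h. Prps2 thus had more Cast than B6 reads before DOX, and its 4 h samples lay on both sides of the starting value, whereas all Prps1 samples after 0 h lay below theirs.

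At 4 h the log2 change of the ratio was -0.27 ± 0.097 in Prps1 (95% interval -0.46 to -0.08, edgeR, adjusted p = 0.589) and -0.0053 ± 0.13 in Prps2. Between 0 and 8 h the ratio fell by 0.88 ± 0.098 in Prps1 and by 0.48 ± 0.13 in Prps2 (edgeR, adjusted p = 8.51e-13 and 0.0275), and between 8 and 12 h by 0.47 ± 0.11 and 0.82 ± 0.16 (adjusted p = 0.0114 and 0.000425). At 24 h the log2 change was -1.39 ± 0.11 in Prps1 and -1.70 ± 0.15 in Prps2. The difference, Prps1 minus Prps2, was -0.05 ± 0.18 at 12 h (95% interval -0.40 to 0.31) and 0.31 ± 0.19 at 24 h (95% interval -0.06 to 0.67), within the error at both times. Their difference at 8 h was not computed. The 8 h call of Prps2 was lost with DESeq2 (adjusted p = 1) and without either 0 h or either 8 h sample (-0.41 to -0.56, adjusted p = 0.0787 to 0.484). The step from 8 to 12 h was lost for Prps1 without either 8 h or either 12 h sample (adjusted p = 0.065 to 0.3), and for Prps2 without 8 h replicate 1 (adjusted p = 0.0528) or 12 h replicate 2 (adjusted p = 0.438).

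Hprt, the purine salvage enzyme (chrX:52988078-53021660, plus strand), lies 50.4 Mb from Xist and was called lower from 8 h on. Its d-score was 0.589 and 0.550 at 0 h, 0.553 and 0.518 after 4 h, 0.428 and 0.469 after 8 h, 0.394 and 0.421 after 12 h, and 0.362 and 0.339 after 24 h. The 4 h samples overlapped those at 0 h and the later ones did not. The log2 change of the ratio was -0.19 ± 0.095 at 4 h (edgeR, adjusted p = 0.985), -0.70 ± 0.096 at 8 h (adjusted p = 4.42e-09) and -1.29 ± 0.10 at 24 h (adjusted p = 2.55e-22). The step from 4 to 8 h (-0.51 ± 0.099, adjusted p = 0.000163) had an adjusted p of 0.0652 without 4 h replicate 1 and 0.202 without 8 h replicate 1.

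Idh3g, of the citric acid cycle (chrX:73778963-73786897, minus strand), stood apart from the other enzymes. Its d-score was 0.514 and 0.512 at 0 h, 0.499 and 0.502 after 4 h, 0.464 and 0.484 after 8 h, 0.430 and 0.445 after 12 h, and 0.472 and 0.463 after 24 h. Every later sample lay below both samples at 0 h, by little, and the lowest were those at 12 h. The ratio fell by 0.44 ± 0.11 at 12 h (edgeR, adjusted p = 0.00894), a call lost with DESeq2 (adjusted p = 0.316) and without 0 h replicate 1, 0 h replicate 2 or 12 h replicate 1 (adjusted p = 0.087, 0.0749 and 0.244). At 24 h the log2 change was -0.26 ± 0.11 (95% interval -0.48 to -0.04, adjusted p = 0.405), 83.3% of the start. Among the 362 X-linked genes tested this was rank 349 from the largest fall, and Pdk3, Pgk1, Prps2, Prps1, Hprt, G6pdx and Pdha1 had ranks 73, 108, 114, 156, 174, 195 and 238.

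G6pdx at 29.0 Mb and Idh3g at 29.7 Mb lie on the same side of Xist at similar distances, and their difference at 24 h, G6pdx minus Idh3g, was -0.95 ± 0.23 (95% interval -1.40 to -0.50). Ssr4, which encodes a subunit of the translocon-associated protein complex, starts next to Idh3g and is read in the opposite direction. The d-score of Ssr4 was 0.537 and 0.541 at 0 h, 0.523 and 0.463 after 4 h, 0.468 and 0.425 after 8 h, 0.398 and 0.481 after 12 h, and 0.484 and 0.415 after 24 h. Its ratio had a log2 change of -0.51 ± 0.22 at 24 h (edgeR, adjusted p = 0.463), and the difference from Idh3g was 0.24 ± 0.25 (95% interval -0.25 to 0.74).

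The nearest measurable genes of the members were read in the same way. Counting Ssr4 and those of Gla, 10 of 17 such neighbours were lower at 24 h (75.1% of X-linked genes), namely Atp7a, Lpar4, Phf6, Fam122b, Sh3kbp1, Adgrg2, Pcyt1b, Tmsb4x, Msl3 and Armcx4. The other 7, Fam3a, Gab3, AU015836, Frmpd3, Tsc22d3, Drp2 and Ssr4, were not called, and among these 7 all but Ssr4 had at most 35 allelic read pairs in their shallowest sample. Atp7a, a copper transporter gene 58.9 kb from Pgk1, had a log2 change of -1.79 ± 0.095, and its difference from Pgk1 was 0.04 ± 0.12 (95% interval -0.19 to 0.28). Of 15 such differences 4 had an interval that left out 0. These were Pgk1 from Lpar4 (0.74 ± 0.32), Hprt from Fam122b (0.85 ± 0.25), Pdha1 from Adgrg2 (1.12 ± 0.28) and Prps2 from Msl3 (-0.72 ± 0.26), where a positive value means a smaller fall in the enzyme. Their gaps to the enzyme were 717, 222, 252 and 1270 kb, in this order. For Pdk3 and Pcyt1b, 14.7 kb apart, the difference was -0.21 ± 0.15, and for Hprt and Phf6, 31.1 kb apart, 0.15 ± 0.18. Drp2, next to Gla, was the one neighbour with a positive change (0.51 ± 0.61, adjusted p = 0.943).

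**Figure D2:**
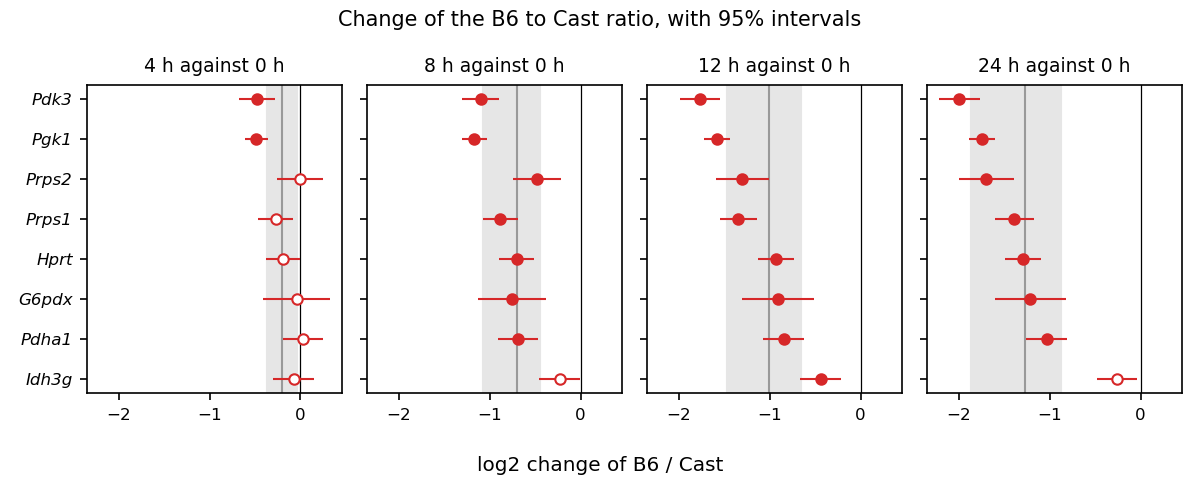
Log2 change in B6 over Cast (horizontal axis) of 8 enzymes (rows) at 4, 8, 12 and 24 h against 0 h, with 95% intervals, filled points for an adjusted p under 0.05, a grey line at the median of X-linked genes and a grey band from their lower to their upper quartile. At 24 h Pdk3 (-2.0) lies below the band, Idh3g (-0.26) lies above it, and the other enzymes lie within it.

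The enzymes can be ordered by their change at 24 h, but neighbours in that order did not differ beyond their error, except at its end. The order was Pdk3, Pgk1, Prps2, Prps1, Hprt, G6pdx, Pdha1 and Idh3g. Of the 28 pairs of enzymes, 18 had a difference whose 95% interval left out 0 and 10 did not, with 19 and 9 after 12 h. Idh3g differed from each of the other 7, and the other gene minus Idh3g ran from -0.77 ± 0.16 (Pdha1) to -1.73 ± 0.16 (Pdk3) on the log2 scale. Pgk1 and Pdk3 differed by 0.25 ± 0.13 (95% interval -0.01 to 0.52), and G6pdx, Hprt and Pdha1 did not differ among themselves. No p is given for the pairs, since the enzymes were chosen together.

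Most of the loss took place before 12 h. Between 4 and 8 h the ratio fell in 6 of 8 enzymes (37.6% of X-linked genes), namely Pgk1, G6pdx, Pdha1, Pdk3, Prps1 and Hprt, and Prps2 had a log2 change of -0.48 ± 0.14 (edgeR, adjusted p = 0.0529). Without 4 h replicate 1, 4 h replicate 2 or 8 h replicate 1 that of G6pdx had an adjusted p of 0.497, 0.129 and 0.904. Between 8 and 12 h it fell in 4 (13.8%), namely Pgk1, Pdk3, Prps1 and Prps2. Between 12 and 24 h it fell in 0 with edgeR (6.91%), where 3 had an unadjusted p under 0.05, and the values were -0.40 to 0.18.

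To express in hours when the loss passed a fixed level, the d-score was scaled to 0.5 at 0 h and a curve was fitted. In the study, reaching such a level reflects the efficiency of loss and not the time at which loss is fastest. The time at which the curve reached 0.35 was read off (IC35). This level is a fixed fraction of the 0 h d-score, so a gene with a lower start reaches it with a smaller fall of its B6 to Cast ratio. It was 5.82 h for Pgk1, 6.20 h for Pdk3, 7.54 h for Prps1, 9.11 h for Prps2, 11.6 h for G6pdx, 12.5 h for Hprt and 12.8 h for Pdha1, and Idh3g did not reach the level by 24 h. Of 330 X-linked genes with a usable curve 248 reached it, with a median of 8.35 h among those that did. Counted from the earliest of the 330, the ranks were 50 for Pgk1, 59 for Pdk3, 92 for Prps1, 145 for Prps2, 187 for G6pdx, 203 for Hprt and 206 for Pdha1. Single replicate series gave 5.19 and 6.41 h for Pgk1, 5.25 and 7.07 h for Pdk3, 7.45 and 7.64 h for Prps1, and 10.1 and 8.52 h for Prps2. The spread was wider for G6pdx (7.86 and 14.5 h) and Hprt (9.18 and 16.1 h), and Pdha1 gave 10.3 h in replicate 1 and did not reach the level in replicate 2. The orders within Pgk1 and Pdk3, and within G6pdx, Hprt and Pdha1, are therefore within the spread of the replicates. The midpoint of the fitted fall gave another order. It was 5.63 h for Pgk1, 6.40 h for Prps1, 6.58 h for Pdk3, 6.88 h for Pdha1, 7.23 h for G6pdx, 8.21 h for Hprt and 9.03 h for Prps2. The curves of G6pdx, Hprt and Pdha1 levelled off at 0.321, 0.293 and 0.345, and those of Pgk1, Pdk3, Prps1 and Prps2 at 0.179 to 0.262. No error was computed for the midpoints.

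**Figure D3:**
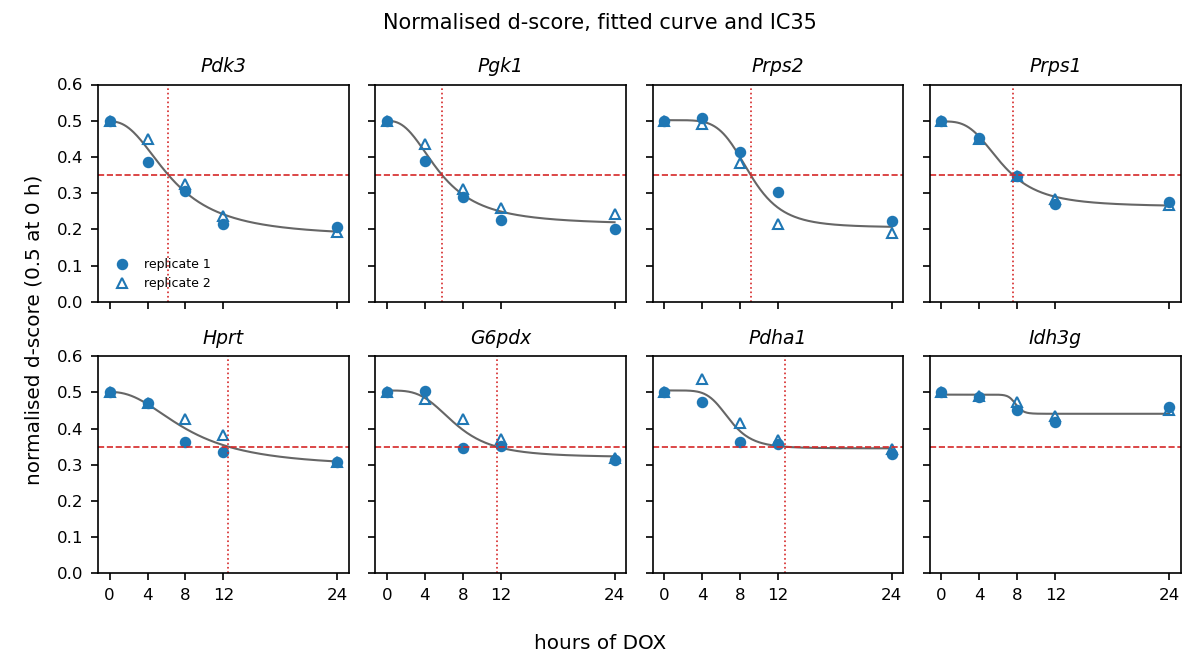
The normalised d-score (vertical axis, 0.5 at 0 h) of 8 enzymes against hours of DOX, with a circle for replicate 1, a triangle for replicate 2, the fitted curve, a dashed line at 0.35 and a dotted line at the IC35. Pgk1 and Pdk3 cross the dashed line at 5.82 and 6.20 h, Pdha1 touches it at 12.8 h, and Idh3g stays above it.

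Set beside distance, the 2 members nearest to Xist, Pgk1 and Pdk3, had the lowest IC35, and past 29 Mb the order was no longer that of distance: Prps2 at 63.9 Mb came before G6pdx at 29.0 Mb, Hprt at 50.4 Mb and Pdha1 at 56.6 Mb. These IC35 do not mark equal losses, since the 0 h d-score was 0.362 in Prps2 and 0.563, 0.569 and 0.539 in G6pdx, Hprt and Pdha1. From a lower start, a smaller fall of the B6 to Cast ratio reaches the level. At 8 h the log2 change of that ratio was -0.48 in Prps2, against -0.76, -0.70 and -0.69 in G6pdx, Hprt and Pdha1. At 12 h it was -1.30 in Prps2, against -0.91, -0.93 and -0.85. Of the windows with a GC box in which silencing could be timed, those of Pgk1, Pdk3 and Prps1 belonged to the members with the lowest IC35 and those of G6pdx and Hprt to members with a higher one. The windows of Prps2 (IC35 of 9.11 h), Pdha1 (12.8 h) and Idh3g (level not reached) had no GC box. Set beside the 0 h level per kb, Pgk1 (21.5 CPM per kb) and Pdk3 (1.78), the highest and the lowest of the 8 enzymes with allelic reads, were the pair with the shortest times. Idh3g and Pdha1, close to each other at 0 h, had no IC35 and the longest. These are descriptions of 8 genes and carry no test.

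The 2 alleles were then taken apart, each scaled by its own autosomal counts. The B6 allele lost reads in 7 of the 8 enzymes, and a change of the Cast allele was not detected in any. The B6 count was lower in 0 of 8 at 4 h with edgeR (0.548% of X-linked genes), where 5 had an unadjusted p under 0.05 and the replicate block called 1, in 6 after 8 h (46.3%), in 8 at 12 h (67.4%) and in 7 at 24 h (77.5%). At 24 h it stood at 24.4% of its 0 h value in Pdk3, 30.3% in Prps2, 33.1% in Pgk1, 34.5% in Prps1, 41.5% in G6pdx, 41.6% in Hprt, 48.3% in Pdha1 and 80.2% in Idh3g. The log2 change in Idh3g was -0.47 ± 0.12 at 8 h (adjusted p = 0.0573), -0.50 ± 0.12 at 12 h (adjusted p = 0.0228) and -0.32 ± 0.12 at 24 h (adjusted p = 0.274, edgeR). Its call at 12 h was lost without 0 h replicate 1 or either 12 h sample (adjusted p = 0.0597 to 0.283).

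The Cast count was lower in 0 and higher in 0 of 8 at every time with edgeR, with 0 at an unadjusted p under 0.05 as well. Over all genes the shares called were 0.0% at 4, 8 and 12 h and 0.176% at 24 h. The members' log2 changes at 24 h were -0.14 ± 0.10 (Prps1) to 0.17 ± 0.089 (Pgk1). For Pgk1 the 95% interval was -0.02 to 0.35 and for Prps1 -0.34 to 0.07. The widest interval, that of G6pdx, was -0.36 to 0.27.

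**Figure D4:**
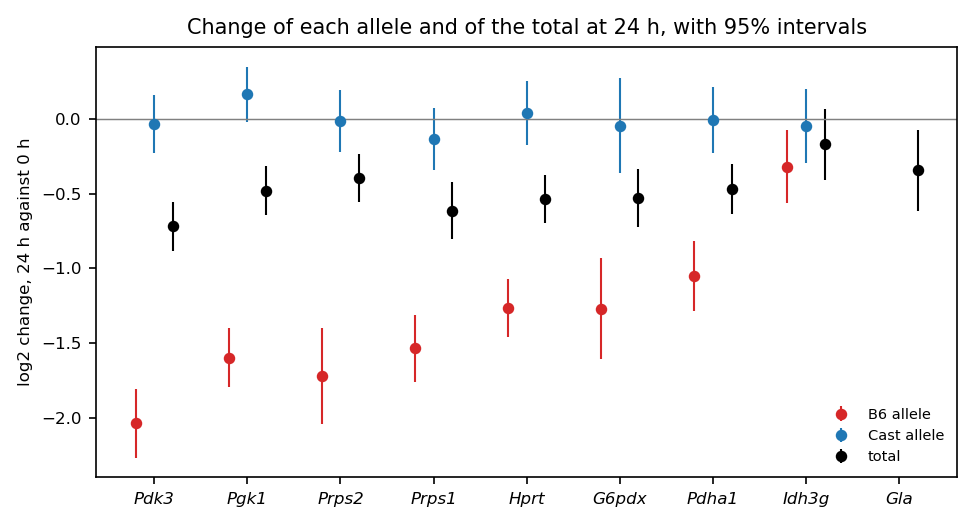
Log2 change at 24 h against 0 h (vertical axis) of the B6 count, the Cast count and the total count of 9 enzymes (horizontal axis), with 95% intervals. The Cast points lie between -0.14 and 0.17, the B6 points between -2.04 (Pdk3) and -0.32 (Idh3g), and the totals between -0.72 (Pdk3) and -0.17 (Idh3g). Gla has a total only.

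The total nascent count, which joins both chromosomes and reads that cannot be assigned, was lower in 7 of 9 enzymes at 24 h. In bulk cells, fewer cells that transcribe a gene and less transcription per cell cannot be told apart. With edgeR over 14525 genes, 0 of 9 members were lower at 4 h (0.0% of X-linked genes, 0.0138% of all genes in either direction), 2 were lower by 8 h (5.38% and 0.193%), 7 by 12 h (22.5% and 0.95%) and 7 by 24 h (38.0% and 1.85%). At 4 h 0 had an unadjusted p under 0.05 and DESeq2 called 0. Depth was not matched in these counts either, and each of the 9 members had at least 190 read pairs in every sample. The median log2 change of the members was -0.11, -0.32, -0.48 and -0.48, near the -0.08, -0.27, -0.41 and -0.50 of 502 X-linked genes, with 0.0005, -0.0002, -0.0042 and 0.0084 over all genes.

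Replicate numbers paired the samples in total counts. With the replicate number as a block, 5 of 9 members were lower at 8 h (20.7% of X-linked genes), with Pdha1, Idh3g and Gla added (adjusted p = 0.0274, 0.0204 and 0.0166), 9 at 12 h (55.4%), with Idh3g and Prps1 added (adjusted p = 0.0255 and 0.0032), and the count at 24 h was 7 again (61.4%).

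The members that carried the change in total at 24 h were Pdk3, Prps1, Hprt, G6pdx, Pgk1, Pdha1 and Prps2. Pdk3 stood at 119 and 122 CPM at 0 h, 110 and 113 after 4 h, 86.0 and 89.8 after 8 h, 75.7 and 80.2 after 12 h, and 69.7 and 75.2 after 24 h, without overlap with 0 h at any time. Its total fell by 0.72 ± 0.077 at 24 h (edgeR, adjusted p = 9.51e-05), to 60.7%. Its call at 8 h (-0.42 ± 0.076, adjusted p = 0.0408) was lost without any one sample of 0, 8 or 12 h (adjusted p = 0.0636 to 0.473) and in a fit of 0 and 8 h alone (adjusted p = 0.171). Prps1 stood at 111 and 117 CPM at 0 h and 69.1 and 78.7 after 24 h, a fall of 0.61 ± 0.088 (adjusted p = 0.000952), and its change at 12 h was -0.32 ± 0.087 (adjusted p = 0.123). Hprt stood at 119 and 122 CPM at 0 h and 84.1 and 81.4 after 24 h, a fall of 0.54 ± 0.075 (adjusted p = 0.000817). The 24 h calls of these 3 held in all 15 alternatives, and the 12 h call of Hprt was lost without 12 h replicate 2 (adjusted p = 0.068).

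Pgk1, by level per kb the most transcribed of the enzymes, stood at 365 and 350 CPM at 0 h, 361 and 319 after 4 h, 240 and 248 after 8 h, 215 and 242 after 12 h, and 268 and 241 after 24 h. The 4 h samples overlapped those at 0 h, and from 8 h on all were lower. Its total fell by 0.52 ± 0.077 at 8 h, 0.60 ± 0.078 at 12 h and 0.48 ± 0.077 at 24 h (edgeR, adjusted p = 0.0104, 0.000985 and 0.00255). The call at 8 h was lost without 8 h replicate 1 or 2 (adjusted p = 0.185 and 0.127) or with the other times left out (adjusted p = 0.0586), and that at 24 h without 24 h replicate 2 (-0.42, adjusted p = 0.0618). Pgk1 thus had one of the earliest losses of B6 reads and, at 71.7% of its 0 h total, a value within the range of the other called members, 60.7% to 76.1%.

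G6pdx stood at 41.4 and 36.6 CPM at 0 h and 26.3 and 27.1 after 24 h, Pdha1 at 133 in both samples and at 103 and 87.9, and Prps2 at 84.4 and 85.6 and at 62.8 and 65.5. None of these pairs of groups overlapped. The totals fell by 0.53 ± 0.091, 0.47 ± 0.079 and 0.39 ± 0.076 (edgeR, adjusted p = 0.00403, 0.00364 and 0.0111). The 24 h call was lost for G6pdx without 0 h or 24 h replicate 1 (adjusted p = 0.0531 and 0.0719), for Pdha1 without 24 h replicate 2 (adjusted p = 0.0797), and for Prps2 without 0 h replicate 2 or either 24 h sample (adjusted p = 0.0548 to 0.132). At 12 h the calls of G6pdx and Pdha1 were lost without either 12 h sample (adjusted p = 0.136 to 0.202), that of G6pdx also without 0 h replicate 1 (adjusted p = 0.192) or with the other times left out (adjusted p = 0.0877), and that of Prps2 without 12 h replicate 1 (adjusted p = 0.0675).

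Idh3g and Gla were not called in total at 24 h. Idh3g stood at 71.0 and 62.2 CPM at 0 h, 60.7 and 50.8 after 4 h, 54.3 and 50.2 after 8 h, 58.3 and 48.8 after 12 h, and 64.0 and 53.4 after 24 h, where the ranges overlapped. Its log2 change was -0.32 ± 0.11 at 8 h and -0.17 ± 0.11 at 24 h (adjusted p = 0.919 and 0.691). Replicate 1 of Idh3g lay above replicate 2 at every time, and within each replicate number the 24 h value was below that at 0 h. With the replicate block the adjusted p (edgeR) of Idh3g was 0.0204 at 8 h and 0.0255 at 12 h, and it was not called at 24 h. Gla (chrX:134588169-134601005, minus strand), with 190 to 347 read pairs in a sample the shallowest member, stood at 16.6 and 13.6 CPM at 0 h, 11.8 and 13.1 after 4 h, 9.95 and 10.4 after 8 h, 9.04 and 9.35 after 12 h, and 12.3 and 11.3 after 24 h. Its total fell by 0.66 ± 0.13 at 12 h (edgeR, adjusted p = 0.0212), a call lost without 0 h replicate 1 or either 12 h sample (adjusted p = 0.154 to 0.223) or with the other times left out (adjusted p = 0.0663). At 24 h the value was -0.34 ± 0.13 (adjusted p = 0.299).

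**Figure D5:**
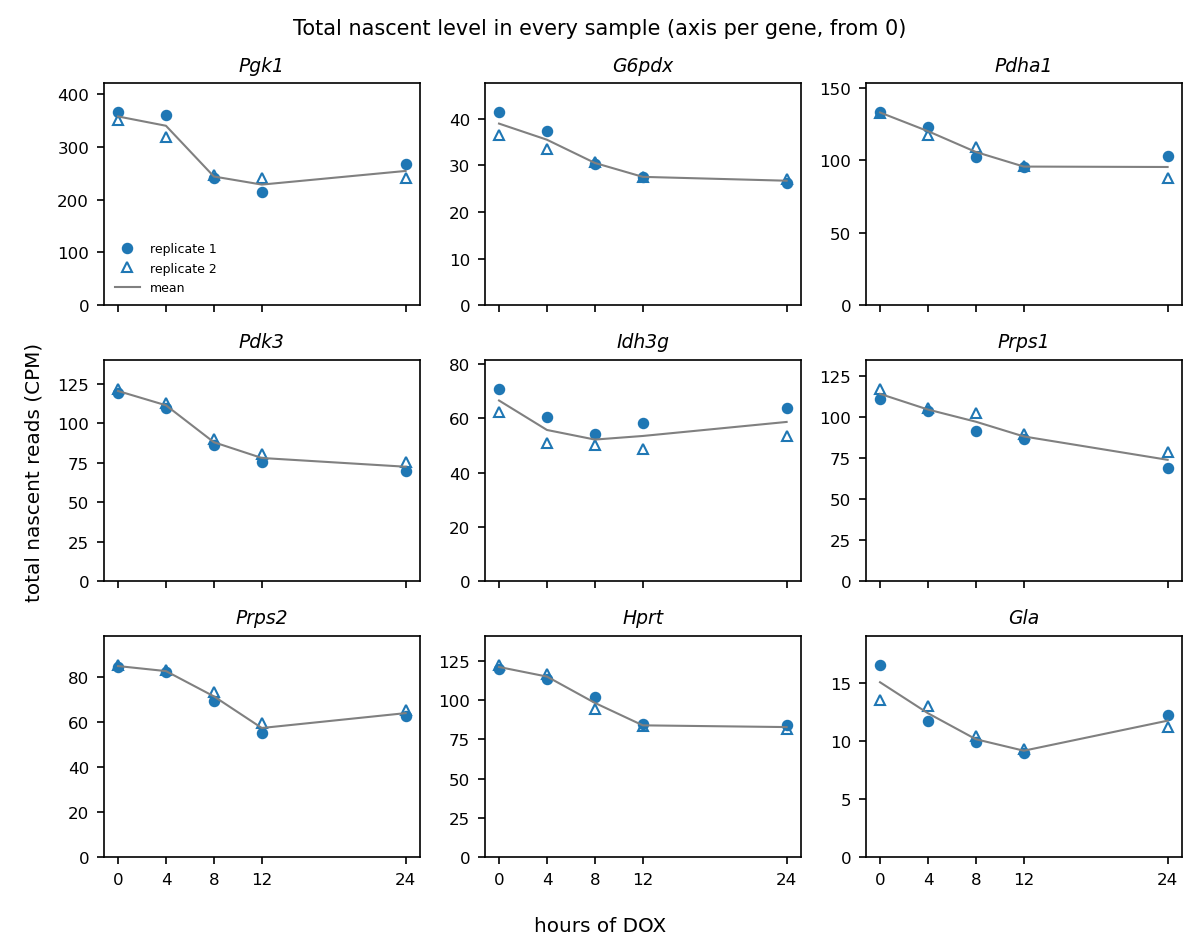
Total nascent reads in CPM (vertical axis, from 0, scaled per gene) of the 9 enzymes against hours of DOX (horizontal axis), with a circle for replicate 1, a triangle for replicate 2 and a line through the mean. Pdk3 goes from 119 and 122 to 69.7 and 75.2 CPM, whereas the 24 h samples of Idh3g (64.0 and 53.4) overlap those at 0 h (71.0 and 62.2). Within each replicate number the 24 h value of Idh3g is below that at 0 h.

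The total change that the d-score gives, if the Cast output of the gene stayed as it was, was set beside the measured one. At 24 h this computed log2 change was -0.67 for Pdk3, -0.59 for Hprt, -0.58 for Pgk1, -0.56 for G6pdx, -0.51 for Prps1, -0.47 for Pdha1, -0.41 for Prps2 and -0.13 for Idh3g. The measured minus the computed value ran from -0.10 in Prps1 to 0.10 in Pgk1. The Cast-biased start of Prps2 puts its computed value at -0.41 although its ratio had a log2 change of -1.70, beside -1.75 in Pgk1, for which -0.58 was computed. The largest gaps were in Idh3g at 4 and 8 h, where measured minus computed was -0.20 and -0.21, beside Cast changes of -0.20 ± 0.12 and -0.24 ± 0.12. By its construction such a gap restates the change of the Cast reads, apart from scaling and unassigned reads. The gap and the Cast change are therefore not separate measurements. No test was made of these gaps.

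Autosomal genes of the same pathways were counted in the same fit, where 1.85% of all genes were called at 24 h and 1495 of 14525 had an unadjusted p under 0.05. In total counts at 24 h, 0 of 17 glycolysis genes, 0 of 7 pentose phosphate genes, 0 of 12 genes of the pyruvate dehydrogenase complex and its regulators, 0 of 16 citric acid cycle genes, 0 of 19 genes of nucleotide synthesis and salvage and 0 of 13 lysosomal glycosidases were called by edgeR, and DESeq2 called 0 as well. In the same order, 1, 0, 2, 1, 2 and 2 of them had an unadjusted p under 0.05, and the medians of the log2 changes were 0.01, -0.02, 0.04, -0.02, -0.03 and 0.15. The genes with the lowest p were Hk1 (0.40 ± 0.098, adjusted p = 0.0555), Pgls (-0.29 ± 0.16, adjusted p = 0.591), Mpc1 (0.29 ± 0.12, adjusted p = 0.381), Dlst (-0.18 ± 0.083, adjusted p = 0.47), Impdh2 (0.25 ± 0.11, adjusted p = 0.404) and Hexa (0.26 ± 0.083, adjusted p = 0.184). With the replicate block, Hk1, the hexokinase that starts glycolysis, and Hexa, a lysosomal hexosaminidase subunit, were called higher (adjusted p = 0.00324 and 0.0307), and they were the 1 glycolysis gene and the 1 glycosidase called. The 1.85% above is from the fit without the block, and the share of all genes called with it is not given here. Among X-linked genes the share called lower at 24 h was 38.0% without the block and 61.4% with it. At 12 h, with edgeR and no block, 0 of 17 glycolysis genes were called. Their median log2 change in total was then -0.18, and 5 were lower at an unadjusted p under 0.05. Over all genes 1673 of 14525 had such a p at 12 h. The medians of the other 5 autosomal lists at 12 h were -0.02 to 0.04. Of the retrogene or paralogous copies of the members outside the X, Pgk2, G6pd2, Prps1l1 and Prps1l3 had 0 or 1 read pair in a sample and Pdha2 had 9 to 21.

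Other X-linked metabolic genes lost B6 reads too. Of 25 such genes 20 could be tested for the B6 share and 21 for the total. The share was lower in 4, 12, 14 and 17 after 4, 8, 12 and 24 h (of X-linked genes 11.3%, 52.8%, 65.5% and 75.1%), with a median log2 change of -1.15 at 24 h. The total was lower in 0, 0, 8 and 9 at these times, with a median of -0.41 at 24 h (38.0% of X-linked genes called), and in 17 at 24 h with the replicate block (61.4%). Phka1, a regulatory subunit of phosphorylase kinase, had the largest fall of both (share -2.26 ± 0.13, total -0.80 ± 0.087, edgeR adjusted p = 4.03e-32 and 0.000105). Ctps2, a CTP synthase, fell by 1.78 ± 0.12 in share and 0.48 ± 0.079 in total, and Slc25a5, the mitochondrial ADP/ATP carrier, by 0.54 ± 0.094 in total. Atp6ap2, an accessory subunit of the vacuolar proton pump, had the smallest called fall in share, -0.40 ± 0.11 (adjusted p = 0.0232), beside the -0.26 ± 0.11 of Idh3g.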

How the data were processed

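TT-seq libraries of 10 samples (5 times, 2 replicates) were used. The authors trimmed reads with Cutadapt, aligned them with STAR to mm10 masked at strain variants (at most 2% mismatches, mapping quality of at least 7, proper pairs) and split them by allele with SNPSplit, per the methods. The submitters' processing notes also list TopHat2 2.1.0, bedtools and featureCounts 1.5.1. The deposited counts are whole read pairs per gene over the longest annotated span with introns, counted by strand by the authors for both alleles together and for each. The deposited fraction is the authors' B6 share per gene. It equals B6 over B6 plus Cast counts and was recomputed from them. Spike-ins did not enter the values used here.

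Total, B6 and Cast counts were tested with edgeR 4.0.16 (R 4.3.3, quasi-likelihood, TMM scaling, low-count filter, two-sided), each time against 0 h, with all samples in one fit. TMM factors of the allelic fits came from autosomal genes. The B6 to Cast ratio was tested in one fit of 20 columns with an intercept per sample, on genes with at least 10 allelic read pairs in every sample. Intervals are 95%. IC35 came from a 4-parameter log-logistic curve through d-score / 0 h d-score of the same replicate / 2, for genes with a 0 h d-score of 0.3 to 0.7 and a residual error under 0.2, with scipy 1.17.1. The fits were tested on simulated counts. Alternatives used DESeq2 1.42.0, other scaling, other filters, the replicate number as a block, the compared times alone and each sample left out in turn.

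Samples of one replicate number deviated together in total counts (r = 0.136 to 0.263, 10 of 10 pairs over 0.1), so the numbers pair the samples there. This was a check on the data, since the labels do not say what a number marks. In the B6 share no pair passed 0.1 (0.0004 to 0.0324), and in B6 and in Cast counts 9 of 10 did (0.0904 to 0.196 and 0.0643 to 0.194), short of the rule that all do.

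Named genes are the members, the nearest measurable gene on each side, genes overlapping a member, Xist, and in each metabolic list the genes called in total at 24 h or, with none, the gene of lowest p. Ssr4 is such a neighbour, and 1 other neighbour is not reported here. The autosomal copies of the members are named beyond this rule, as is Atp6ap2, which was chosen after its value was seen. The members and lists were chosen with earlier results of these data known.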

Additional observations from a re-analysis of the deposited data

How the results depend on the processing

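The B6 share at 24 h was lower in 7 of 8 enzymes under every alternative run. Over the alternatives, 304 of the counts of enzymes or list genes stayed within 1.5 times and 22 did not. With the replicate block, which pairs samples by number, 5 enzymes were lower in total at 8 h in place of 2, 1 in B6 count at 4 h in place of 0, and at 24 h 1 glycolysis gene, 1 lysosomal glycosidase and 17 other X-linked metabolic genes were called in total, in place of 0, 0 and 9. The share of X-linked genes called lower in total at 24 h went from 38.0% to 61.4% with the block, and that of all genes is not given here. In the share and B6 count, replicate numbers did not meet the rule for pairing, and the block gave the same share counts against 0 h and 7 in place of 6 between 4 and 8 h. Fitting 0 and 8 h alone gave 0 enzymes lower in total at 8 h, DESeq2 gave 1 lower in share at 4 h in place of 2, and an IC level of 0.30 was reached by 4 enzymes in place of 7. Leaving out 1 sample at a time gave 0 to 2 enzymes lower in total at 8 h, 3 to 7 at 12 h and 4 to 7 at 24 h, 1 to 2 in share at 4 h, and 2 to 4 between 8 and 12 h.

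The direction turned in 18 values, none of which passed the test, each on leaving out 1 sample. In total at 4 h, log2 changes ran from -0.12 to 0.0092 in Pgk1 and from -0.053 to 0.0133 (0.0112 without 0 h replicate 2) in Prps2. In share at 4 h they ran from -0.12 to 0.036 in G6pdx, -0.16 to 0.20 in Pdha1 and -0.046 to 0.037 in Prps2, and between 8 and 12 h from -0.42 to 0.088 in G6pdx. In Cast count at 24 h they ran from -0.17 to 0.059 in G6pdx, -0.050 to 0.13 in Hprt, -0.16 to 0.16 in Pdha1, -0.13 to 0.056 in Pdk3, -0.19 to 0.085 in Idh3g and -0.077 to 0.040 in Prps2. The cause was not tested. With 2 samples per time and 186 to 332 allelic read pairs in a sample, G6pdx had the widest errors in share, and the smallest detectable change was not computed.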
